A study of Homo sapiens with 6 samples.

Results

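Matrix metalloproteinases (MMPs) are zinc-dependent enzymes that cut collagens and other matrix proteins, and tissue inhibitors of metalloproteinases (TIMPs) bind them and block their active site. In the liver, hepatic stellate cells are a source of members of both families, and the balance between the families sets how much scar matrix is degraded. Several MMP genes are textbook targets of AP-1, the FOS and JUN family of transcription factors, which binds the letters TGACTCA or, read on the opposite strand, TGAGTCA. To see where the zinc finger protein ZNF469 lay on chromatin around these genes, its CUT&RUN records were collected at MMP1, MMP2, MMP3, MMP9, MMP10, MMP14, TIMP1, TIMP2, TIMP3 and TIMP4. CUT&RUN uses an antibody to direct a nuclease to a chromatin protein, and the DNA fragments released there are sequenced.

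A record was taken when it overlapped the body of 1 of these 10 genes or the 20 kb on either side, or the cluster of 9 MMP genes on chromosome 11 that holds MMP1, MMP3 and MMP10, with the same flanks. Full-length ZNF469 had 15 such records of 19108 in its list (0.0785%), 12 in the windows of the 10 genes and 3 in the rest of the cluster. The form without most zinc fingers, dZF, had 0 such records of 54.

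The cells were LX-2, an immortalized human stellate cell line. In the first group (clone3.4) they carried a piggyBac transgene for full-length human ZNF469, and in the second (clone3.1) a transgene for dZF-ZNF469. Both transgenes carried an HA tag and were driven by doxycycline, given at 1 ug/mL for 24 h in both groups, and both lines had been selected with an antibiotic. Each group had 3 libraries, which the authors combined into 1 peak list, so there is no value per library and no replicate error. Construct and line cannot be told apart. The antibody was raised against a stretch of ZNF469 that both constructs keep and that the cells' own gene also encodes. Cells without doxycycline were not analysed here. A peak list holds no expression, so the stellate identity of the line was taken from the labels.

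The sequences around the AP-1 sites are shown first. Of the 15 records, 9 held such a site (60%), against 44.1% of all full-length records. Of the 11 records over 3 kb from any transcript start, 8 did (72.7%), against 52.6% of all such records. Both shares of the list lie inside the members' intervals given below. Each line gives the 20 bases on either side of the site nearest the summit, the point of highest coverage, on the plus strand of hg38, with the site in capitals. Distances are from the main transcript start to the summit, positive in the direction of transcription.

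TIMP2 +62.9 kb, chr17:78862409-78862455: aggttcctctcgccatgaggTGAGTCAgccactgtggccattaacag
TIMP2 +41.6 kb, chr17:78883399-78883445: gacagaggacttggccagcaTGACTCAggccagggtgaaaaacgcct
TIMP2 -8.23 kb, chr17:78933565-78933611: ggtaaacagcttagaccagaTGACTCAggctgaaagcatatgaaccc
TIMP2 -10.3 kb, chr17:78935954-78936000: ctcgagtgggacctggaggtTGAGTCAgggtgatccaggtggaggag
MMP9 -15.3 kb, chr20:45993650-45993696: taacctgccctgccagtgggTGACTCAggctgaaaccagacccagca
MMP14 +15.1 kb, chr14:22851475-22851521: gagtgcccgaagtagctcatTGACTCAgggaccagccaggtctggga
MMP20 +25.6 kb, chr11:102599760-102599806: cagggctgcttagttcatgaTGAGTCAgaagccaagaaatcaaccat
MMP20 +60.9 kb, chr11:102564313-102564359: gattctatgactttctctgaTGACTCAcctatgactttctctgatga
MMP13 -19.4 kb, chr11:102975043-102975089: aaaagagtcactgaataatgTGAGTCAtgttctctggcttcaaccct

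Of the 10 genes, 6 had a full-length record in the window (60%, 95% Wilson interval 31.3% to 83.2%): TIMP2 had 5, MMP10 and MMP14 had 2 each, and MMP2, MMP9 and TIMP3 had 1 each. Among all 20033 protein-coding genes the share was 52%, with 43.4% for genes under 20 kb and 58.1% for longer ones, so the members' share lay near the background. MMP1, MMP3, TIMP1 and TIMP4 had 0 records. Records inside the gene body were present at 3 of the 10 (MMP2, TIMP2 and TIMP3), against 33.6% of all protein-coding genes. The main transcript start lay within 3 kb of a record at 2 of the 10 (TIMP2 and TIMP3), against 21.7% of all.

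**Figure D1:**
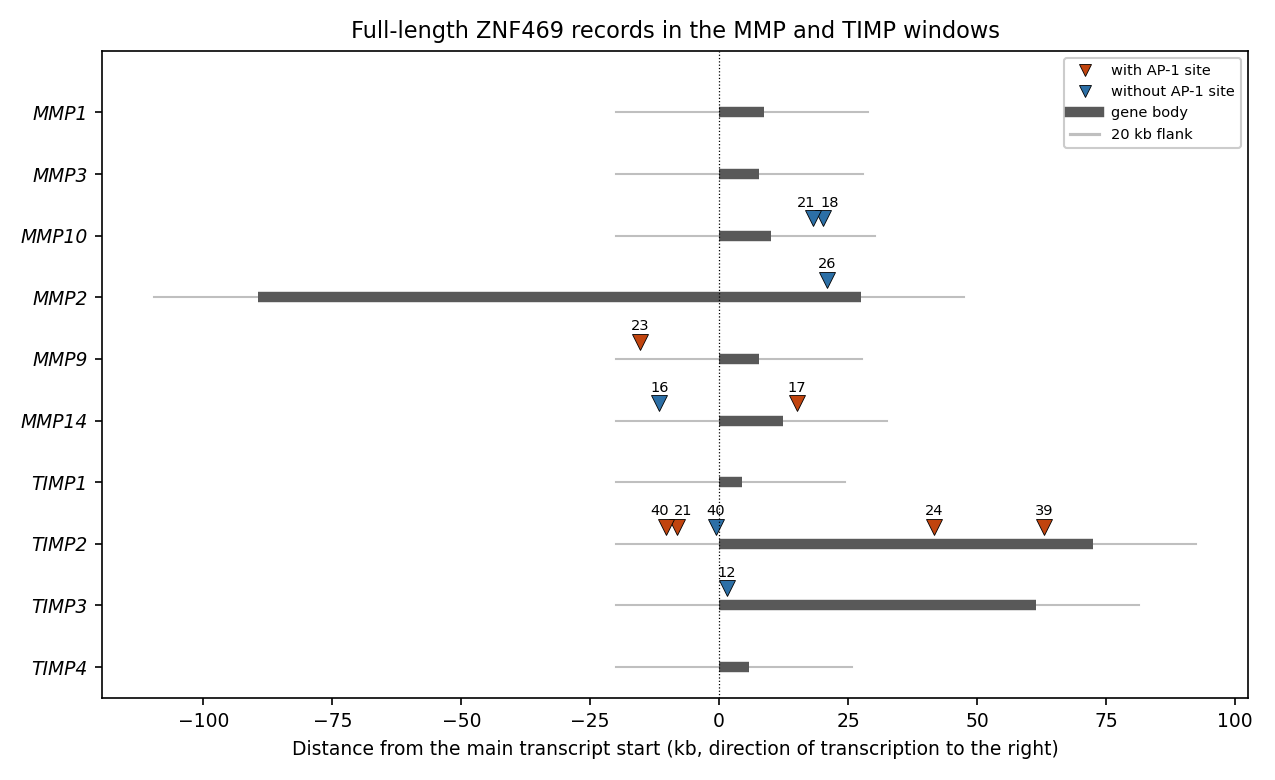
Full-length records around the 10 genes, drawn by distance in kb from the main transcript start, with gene bodies as thick bars and the 20 kb flanks as thin lines. Triangles are record summits, labelled with the summit pileup in fragments and coloured by whether the record holds an AP-1 site. TIMP2 carries 5 of the 12 records, and MMP1, MMP3, TIMP1 and TIMP4 carry 0.

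For each record the lists give a fold enrichment and a −log10 p-value, from which the pileup, the whole number of fragments stacked at the summit, was solved, together with the local background, the number of fragments expected there. The 95% Poisson limits given after a pileup cover counting error only. The 15 records had a median pileup of 21 (95% limits of the median 16 to 27, range 11 to 40), and all 19108 full-length records had a median of 20. Their median fold was 6.71 (6.4 to 9.15, range 4.42 to 12.2) against 7.36 in the whole list. The median of the list lay within the limits of the members' median for both measures.

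TIMP2, which inhibits MMPs and together with MMP14 also forms the complex that activates the MMP2 precursor, had the most records. The gene runs on the minus strand of chromosome 17 from 78852977 to 78925387. With the flanks it had 4.45 records per 100 kb, against 1.45 over all the windows together, its own included. That is no background for the list, and a rate over the whole genome was not computed. Of all protein-coding genes, 3.53% had 5 or more records in the same kind of window. That share is over genes of every length, the TIMP2 window was 112 kb long, and no comparison with genes of like length was made.

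The record nearest the TIMP2 start, from 78925780 to 78926210, lay 0.393 kb upstream of it. It had 40 fragments (28.6 to 54.5) over a local background of 2.59, a fold of 11.4 and a −log10 p-value of 33.7, and it held no AP-1 site. By fold it ranked 784 in the list. The highest fold of the 15 records lay inside the gene, in intron 3, from 78862042 to 78862612. It had 39 fragments (27.7 to 53.3) over a background of 2.28, a fold of 12.2 and a −log10 p-value of 34.6, and it ranked 447 by fold. It held 2 AP-1 sites, the nearer 63 bp from the summit.

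The other intronic record, from 78883145 to 78884115 in intron 1, was weaker, with 24 fragments (15.4 to 35.7) over 2.84 and a fold of 6.51. Its AP-1 site lay 378 bp from the summit, the farthest of the 9 nearest sites. Upstream of the gene, the record from 78935512 to 78936259 had as many fragments as the one at the start, 40 (28.6 to 54.5), but over a background of 4.1, which gave a fold of 8.04. The record 1770 bp closer to the gene, from 78933424 to 78933741, had 21 fragments (13 to 32.1) over 3.98. Its fold of 4.42 was the lowest of the 15, and its AP-1 site lay 28 bp from the summit.

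The 3 TIMP2 records with the highest pileups, 39 to 40 fragments, stood at percentiles 93.4 to 94.1 of the list by pileup. By fold they stood at 97.7 (+62.9 kb), 95.9 (-0.643 kb) and 64.2 (-10.3 kb). The last had a lower fold (8.04) than MMP2 (10.2), MMP20 +25.6 kb (9.15) and MMP9 (8.79). The lower pileup limits of the 3, 27.7 and 28.6, were above the upper limits of the records at MMP13 (19.7), TIMP3 (21), MMP20 +60.9 kb (26) and on either side of MMP14 (26 and 27.2). The 3 were picked as the highest of the 15, and the limits take no account of local background. The limits of at least 1 of the 3 overlapped those of the MMP20 intron, MMP2, MMP9, MMP10 and weaker TIMP2 records, and these differences were not tested.

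The other inhibitors had 1 record between them. TIMP3, the TIMP that binds to the matrix itself, lies inside the synapsin gene SYN3, which is read from the opposite strand, on chromosome 22 from 32801705 to 32863041. Its record, from 32803129 to 32803313, lay in intron 1, with the summit 1.5 kb inside the gene. It had 12 fragments (6.2 to 21) over a background of 1.03, a fold of 6.4 and no AP-1 site, and at 185 bp it was the narrowest of the 15.

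TIMP1, the TIMP most often measured as a marker of activated stellate cells, lies inside SYN1 on chromosome X and had 0 records. The nearest one was 21.1 kb upstream, just beyond the flank, from 47560979 to 47561291 near the start of the kinase gene ARAF. It had 16 fragments (9.15 to 26) and a fold of 6.04. TIMP4, inside SYN2 on chromosome 3, had 0 records, and the nearest was 34.4 kb upstream with 32 fragments (21.9 to 45.2), a fold of 10 and an AP-1 site.

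**Figure D2:**
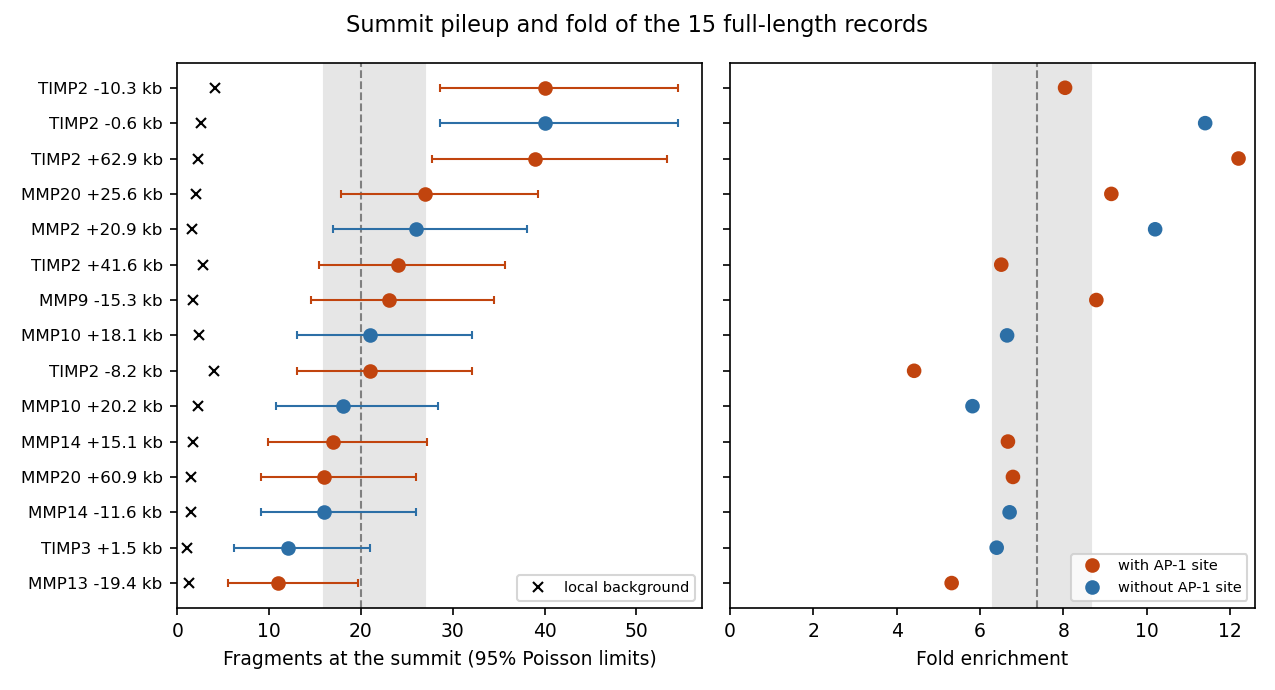
Summit pileup with 95% Poisson limits (left, fragments) and fold enrichment (right) of the 15 full-length records, named by gene and distance from its start, with crosses for the local background. Grey bands are the quartiles and dashed lines the medians of all full-length records (20 fragments, fold 7.36). The 3 highest pileups are TIMP2 records, and most others lie in or near the bands.

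The gelatinases MMP2 and MMP9, which cut denatured collagen and basement membrane collagen, had 1 record each. MMP2 is on chromosome 16 from 55389700 to 55506691, a span that includes transcripts with starts far upstream of the main one at 55479198. Its record, from 55499807 to 55500468, lay in intron 11 near the end of the gene. It had 26 fragments (17 to 38.1) over 1.64, a fold of 10.2 (percentile 90.7) and no AP-1 site. MMP9 (chromosome 20, 46008908 to 46016561) had its record upstream of the gene, from 45993491 to 45993932, with 23 fragments (14.6 to 34.5) over 1.73, a fold of 8.79 and an AP-1 site 67 bp from the summit. The MMP9 start itself had no record within 3 kb.

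MMP14 (chromosome 14, 22836560 to 22849041), the membrane-bound enzyme that activates the MMP2 precursor and cuts fibrillar collagen, had a record on each side and 0 inside. The upstream one, from 22824820 to 22825218, overlapped the amino acid transporter gene SLC7A7 and lay 1.38 kb from 1 of its transcript starts. It had 16 fragments (9.15 to 26), a fold of 6.71 and no AP-1 site. The downstream one, from 22851028 to 22851923, began 1.99 kb beyond the gene end and had 17 fragments (9.9 to 27.2), a fold of 6.67 and an AP-1 site 192 bp from the summit. A Y RNA gene starts within 3 kb of it, which is why it counts among the promoter records.

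The collagenase gene MMP1 and the stromelysin genes MMP3 and MMP10 lie next to each other on chromosome 11. MMP1 (102789401 to 102798160), whose product cuts intact fibrillar collagen, and MMP3 (102835801 to 102843609), whose product cuts proteoglycans and activates other MMPs, had 0 records. MMP10 (102770502 to 102780628), a close relative of MMP3, had 2, both downstream of its end and 1665 bp apart. The first, from 102760316 to 102760745, had 18 fragments (10.7 to 28.4) over 2.27 and a fold of 5.82. The second, from 102762411 to 102762846, had 21 fragments (13 to 32.1) over 2.31 and a fold of 6.65.

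Both MMP10 records also lie in the transcribed pseudogene WTAPP1, which runs across MMP10 and MMP1 on the opposite strand. Neither held TGACTCA or TGAGTCA, although each held 2 matches to the wider TGANTCA. The second of the pair was also the record nearest to MMP1 (26.6 kb) and to MMP3 (73 kb).

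The whole cluster, from MMP7 to MMP13 with its flanks, spans 475 kb and held 5 full-length records, or 1.05 per 100 kb. A rate over the whole genome was not computed, so this density cannot be called low or high. Besides the MMP10 pair there was 1 in intron 6 of MMP20, the tooth enamel protease gene, from 102599362 to 102600293, with 27 fragments (17.8 to 39.3), a fold of 9.15 and 3 AP-1 sites. A record 12.3 kb beyond the end of MMP20, from 102564211 to 102564493, had 16 fragments (9.15 to 26), a fold of 6.79 and 1 AP-1 site. A record upstream of the collagenase gene MMP13, from 102974551 to 102975390, had 11 fragments (5.49 to 19.7), a fold of 5.32 and 3 AP-1 sites.

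Between the second MMP10 record and the MMP13 record, 212 kb held no record, and MMP10, MMP1, MMP3, MMP12 and MMP13 lie in that stretch. Of the 19084 intervals between neighbouring full-length records of a chromosome, 16.8% were as long or longer, and these made up 73% of the total length between records. A gene without a record is one without a peak that passed the authors' filter, not one shown to lack signal. At a local background of 1 fragment or less, 1404 records of the list had pileups from 4 upwards, and 5% of them had 8 or fewer.

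**Figure D3:**
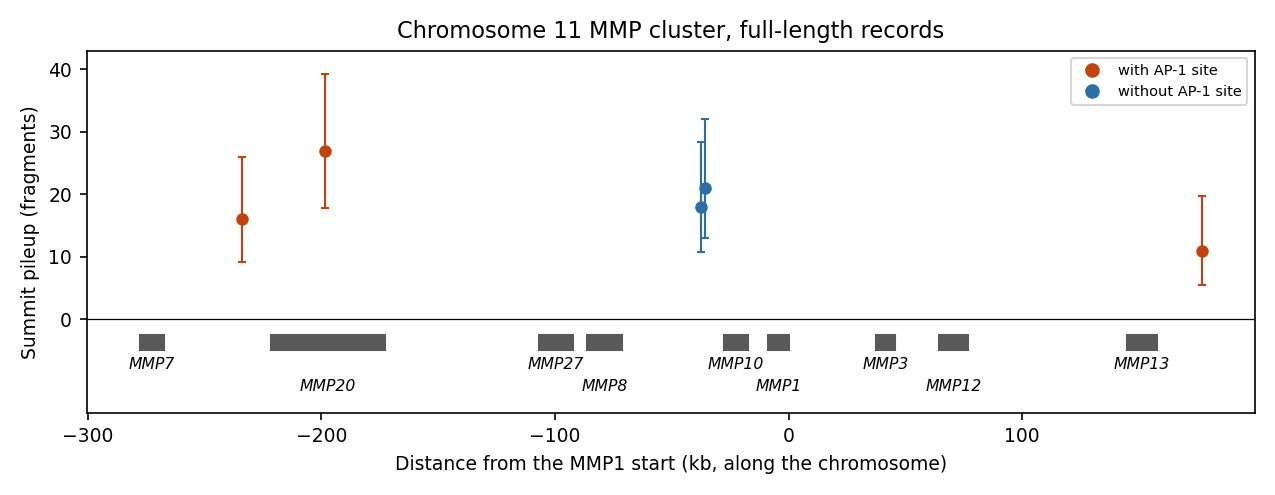
The MMP cluster on chromosome 11, drawn by distance in kb from the MMP1 start along the chromosome, with MMP genes as grey boxes. Points are the summit pileups of the 5 full-length records, with bars for the 95% Poisson limits and colours for AP-1 sites. The 212 kb between the MMP10 pair and the MMP13 record hold no record.

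AP-1 sites were counted next, as TGACTCA or TGAGTCA anywhere in a record. Of the 15 records, 9 held at least 1 (60%, Wilson interval 35.7% to 80.2%), and of all full-length records 44.1% did. Among the 11 distal records, those over 3 kb from any transcript start, 8 held a site (72.7%, 43.4% to 90.3%), against 52.6% of all distal records. Of the 4 promoter records, at TIMP2, TIMP3, SLC7A7 and the Y RNA gene, 1 held a site, the last, against 31% of all promoter records. Promoter records made up 26.7% of the 15 (10.9% to 52%) and 39.3% of the list. Each background share lay inside the interval of the members' share. These intervals, like those of the medians above, treat the records as independent draws. As 5 of the 15 lie at TIMP2, they may be too narrow.

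The whole-record count depends on width, and the records at TIMP2 +41.6 kb, MMP20 +25.6 kb, MMP14 +15.1 kb and MMP13 were 840 to 971 bp wide against a list median of 440 bp. In a fixed window of 300 bp around the summit, 6 of the 15 held a site (40%, 19.8% to 64.3%), against 38.8% of all full-length records in the same window. Of the 11 distal records, 54.5% held a site within 100 bp either side of the summit, against 72.7% in the whole record. The share of all distal records in that narrower window was not computed. By letters on the plus strand, 5 of the 9 printed sites read TGACTCA and 4 TGAGTCA.

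The nearest site lay 27 to 378 bp from the summit, with a median of 67 bp, and 3 of the 9 were within 50 bp. Over the 8430 records of the list with a site the median was 56 bp, and 46.3% were within 50 bp. Records with and without a site had similar signal, with pileups of 11 to 40 (median 23) and 12 to 40 (median 19.5) and median folds of 6.79 and 6.68. With 9 and 6 records this difference was not tested.

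**Figure D4:**
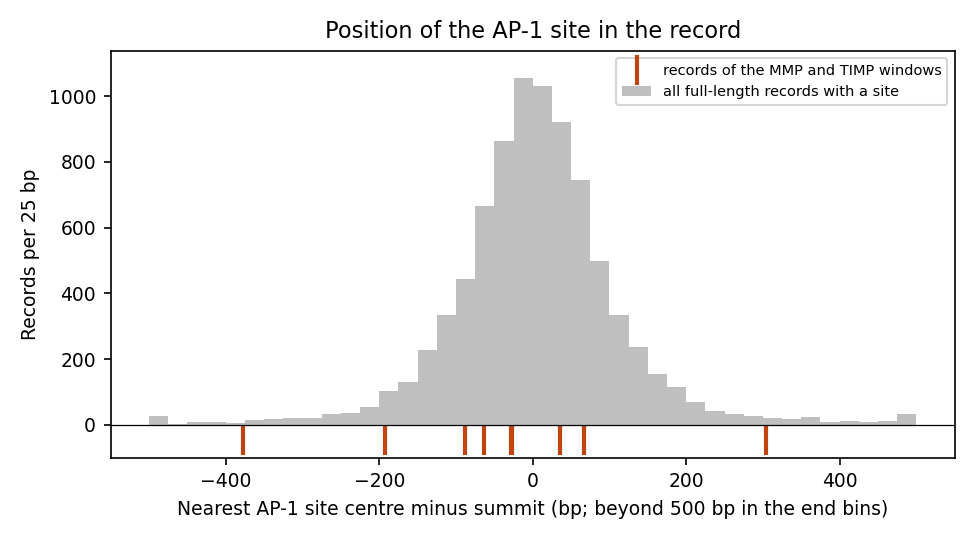
Distance in bp from the summit to the centre of the nearest AP-1 site, for all 8430 full-length records with a site (grey bars, records per 25 bp) and for the 9 records of the MMP and TIMP windows (ticks under the axis, of which those at -27 and -28 bp overlap). The end bars also hold the sites over 500 bp away. The bars peak at the summit, and 3 of the 9 ticks lie within 50 bp of it.

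Further motifs were counted in the same way on both strands. TGTGGT, the core letters bound by RUNX factors, were in 9 of the 15 records (60%, 35.7% to 80.2%) against 31.7% of the list, and in the fixed window in 7 (46.7%, 24.8% to 69.9%) against 24%. GGGCGG, bound by SP factors, was in 7 (46.7%, 24.8% to 69.9%) against 20.3%, and in the fixed window in 5 (33.3%, 15.2% to 58.3%) against 17.6%. The RUNX shares of the list lay below both intervals, and the SP share below the whole-record interval only. The 7 records with GGGCGG include those at TIMP2 +41.6, -0.643, -8.23 and -10.3 kb, which were 55.2% to 62.3% G and C. Shares without TIMP2 were not counted for these motifs. GGAATG, bound by TEAD factors, was in 5 (33.3%) against 35.6%, but in the fixed window in 0, which allows a share of up to 20%, against 27.7%. The CRE letters TGACGTCA were in 0, against 1.12%. Of the 35116 RefSeq promoters of the same length, 13.1% hold the RUNX letters, 14% the TEAD letters and 1.85% the CRE letters. The shares of 5 motifs are descriptions without a test, and a match to the letters does not show that a factor binds there.

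Base composition set the cluster apart from the other records. The 5 records of the chromosome 11 cluster were 31.1% to 38.3% G and C, and the 5 TIMP2 records 50.3% to 62.3%. The records at MMP2, MMP9, MMP14 and TIMP3 were 46.4% to 56.9%, and the list median was 44.6%. Local backgrounds were 2.28 to 4.1 fragments at TIMP2 and 1.26 to 2.31 in the cluster, so these ranges overlapped. They were 1.03 to 1.73 at MMP2, MMP9, MMP14 and TIMP3, and 1.82 in the median record of the list. The part of composition and local background in the pileups was not tested.

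RefSeq promoter sequences (GRCh38.p14, 250 bases before to 50 after the start) were matched for 5 of the 10 genes, MMP10, MMP14, TIMP1, TIMP3 and TIMP4. The unmatched genes were MMP1, MMP2, MMP3, MMP9 and TIMP2. The same stretches of hg38 were not searched in place of the missing entries, so the promoter counts say nothing about AP-1 sites at these genes. Of the 5 matched promoters, 0 held TGACTCA or TGAGTCA, which 4.95% of all 35116 promoters hold, and 4 held GGGCGG, which 45% hold. With 5 promoters, a count of 0 cannot be told apart from a share of 4.95%. TIMP3, the gene of the 5 with a record within 3 kb of its start, had 5 GGGCGG matches. None of these 300-base windows overlapped a record.

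**Figure D5:**
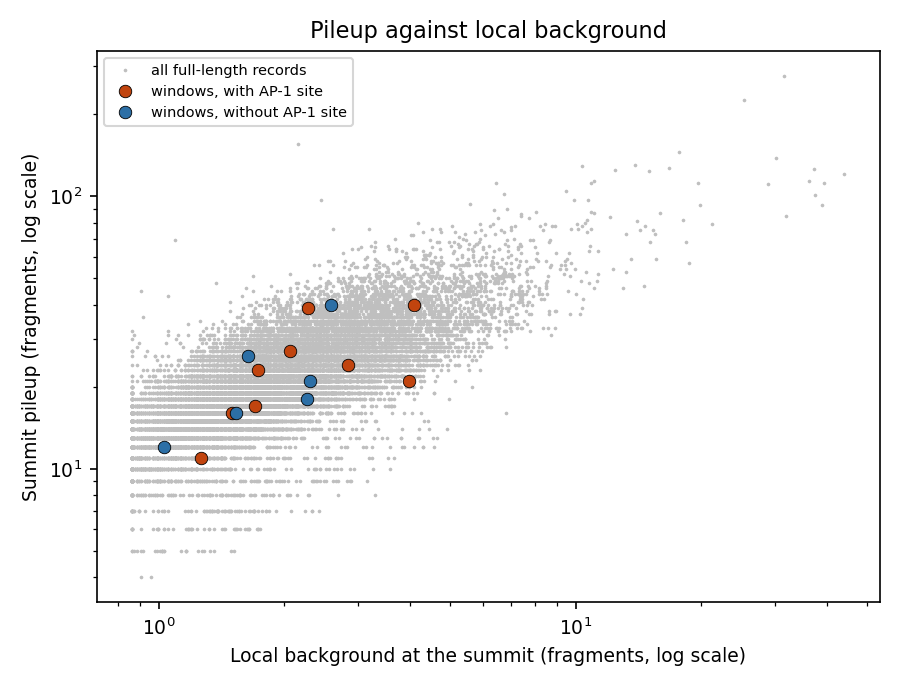
Summit pileup against local background, both in fragments on log scales, for all 19108 full-length records (grey) and the 15 of the MMP and TIMP windows (coloured by AP-1 site). The 15 lie within the main cloud, with pileups up to 40 fragments, while the list reaches 277.

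With dZF there were 0 records in any of the windows. The list holds only 54 records, and 0 of 54 allows a share of up to 5.56%, far above the 0.0785% of full-length records in these windows. Of all protein-coding genes, 0.125% had a dZF record in the body or flanks. Measured from the main transcript start, the nearest dZF record was 2.49 Mb away for MMP14, 9.09 Mb for MMP2 and farther for MMP9, TIMP1, TIMP2 and TIMP4, and chromosomes 11 and 22 held 0 dZF records. The absence of dZF records at MMP and TIMP genes could thus not be distinguished from the shortness of that list.

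Among 17 further MMP genes, 8 had a full-length record in the body or flanks (47.1%, 26.2% to 69%): MMP11, MMP13, MMP16, MMP17, MMP19, MMP20, MMP24 and MMP28. The 52% of all protein-coding genes lay inside this interval, and the MMP13 and MMP20 records are among the 15 described above. MMP7, MMP8, MMP12, MMP15, MMP21, MMP23B, MMP25, MMP26 and MMP27 had 0. None of these 17 starts lay within 3 kb of a record, against 21.7% of all starts. MMP19 and MMP24 had 3 each. Of the MMP19 records, the strongest had 36 fragments (25.2 to 49.8) and a fold of 11.6, but it overlapped ORMDL2 and SARNP, and the one nearest the MMP19 start, at -5.12 kb, had 26 fragments (17 to 38.1) and a fold of 11.2. The MMP11 record overlapped SMARCB1, a MMP24 record PROCR, and a MMP28 record TAF15, so these neighbours share them. The MMP28 record inside the gene had 28 fragments (18.6 to 40.5), a fold of 8.77 and 2 AP-1 sites.

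Of 10 genes listed as regulators of MMP activity, 7 had a record (70%, 39.7% to 89.2%), and BSG, A2M and PCSK6 had 0. The shares of all protein-coding genes (52%) and of those of 20 kb or more (58.1%) lay inside this interval. FURIN, the protease that activates the MMP14 precursor, had 1 record in its body, 1.27 kb from the start, with 33 fragments (22.7 to 46.3), a fold of 12.8 and an AP-1 site. RECK, a membrane-anchored MMP inhibitor, had 3, of which the one 65.7 kb inside the gene was strongest with 28 fragments (18.6 to 40.5), a fold of 11.1 and 2 AP-1 sites. LRP1, the receptor that clears MMPs and TIMPs, had 3 with 11 to 21 fragments. SDC1, a syndecan, had 3, of which each held an AP-1 site, with 16 to 19 fragments. CD44, a cell-surface anchor for MMPs, had 5, with 20 to 59 fragments. The matrix protein gene TNC had 6, with 23 to 42 fragments over local backgrounds of 2.09 to 5.99 and folds of 4.72 to 10.7. The caveolin gene CAV1 had 8, with 20 to 56 fragments over 2.14 to 6.98 and folds of 4.81 to 9.54. Of the CAV1 records 3 overlapped COMETT, and LRP1 records overlapped STAT6 and SHMT2. The dZF list had 0 records at each of these 27 genes.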

How the data were processed

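CUT&RUN with an anti-ZNF469 antibody was analysed from 6 libraries, 3 per construct. Per the labels, the authors used Bowtie2 2.3.4.3 and MACS2 2.2.5 on hg38, with other settings not given in the sources used here, and the lists are filtered by irreproducible discovery rate (IDR). The deposited score is the scaled IDR (540 to 1000 for full-length, 542 to 1000 for dZF). The deposited fold enrichment and −log10 p-value belong to each record's summit, and the deposited −log10 q-value was not used. The summit offset was read in bp.

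A whole-number pileup with fold = (pileup + 1)/(background + 1) and the Poisson tail as p-value explained 100% of the records of both lists within 0.001 in −log10 p. The step was tested on 1000 simulated records, of which 100% came back right. They were made with the same formula, so this shows only that the formula can be inverted. The simulated backgrounds and pileups did not reach the highest of the list. MACS2 counts either paired fragments or extended reads, and which was used is not given in the sources used here. The library totals were not analysed here.

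Genes, transcript starts and the main (MANE Select) transcript were from GENCODE 44, and sequences from hg38. A record counted at 1 bp of overlap. A promoter was 3 kb around any transcript start. The genes named were the 10 members, every gene of the further lists with a record, and neighbours that records overlap or whose starts they lie near. Members, lists and motifs were chosen with earlier results of these data known. Replicates were pooled by the authors, so no test between constructs was made. Python 3.11.15, scipy 1.17.1, pandas 2.3.3 and matplotlib 3.10.9 were used.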

Additional observations from a re-analysis of the deposited data

How the results depend on the processing

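The 8 results (counts of records, genes with a record, median fold and pileup, and AP-1 and promoter shares) were recomputed under 48 alternatives, of which 6, leaving out TIMP2, were chosen after seeing the data. In 41 the value stayed within 1.5 times the count or within the interval of the median or share. Counts followed the width of the window and the stringency by construction. With no flank there were 8 records and 3 genes with one, and with 50 kb flanks 25 records. The 8 are not all in gene bodies, because the whole stretch from MMP7 to MMP13 still counted. At an IDR of 0.01 there were 7 records, and in the upper 50% of the list by fold 6 records and 3 genes. With TGANTCA as the site, 90.9% of the distal records held one. The share of all distal records with this wider pattern is not given here, so the value has no background beside it. The dZF count stayed at 0 under its 4 alternatives. Without TIMP2 there were 10 records with a median pileup of 17.5, and 57.1% of the distal ones held an AP-1 site. No paired analysis was possible because the 3 libraries of a construct were merged into a single list by the authors, which also means that none of them could be left out in turn.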

Other observations

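The sequences at TIMP2 -8.23 kb and MMP9 -15.3 kb, on different chromosomes, share the AP-1 site and the letters after it, a run of 15 bases, TGACTCAGGCTGAAA. Of the 19108 full-length records, taken with 300 bp on either side, 2 held this run on either strand, the pair named here. The sequence at MMP20 +60.9 kb holds a run of 19 bases, CTATGACTTTCTCTGATGA, 2 times within its 47 bases, and 1 record of the list held that run. These runs were noticed in the printed sequences, and whether they belong to repeat families was not tested.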
